A study of Homo sapiens with 40 samples.

Results

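The chromatin around 6 genes of the STAT family (STAT2, STAT3, STAT4, STAT5A, STAT5B and STAT6) was described in BT474 and BT474R breast cancer cells. A consensus region was a stretch covered by overlapping ATAC-seq peaks (overlap of at least 1 bp) in at least 2 of 40 libraries, and a region belonged to a gene when its midpoint lay in the gene body or within 50 kb of either end, with genes taken from GENCODE release 44 on GRCh38. This gave 41 of 71600 consensus regions: 6 in the window of STAT2, 13 in that of STAT3, 7 for STAT4, 6 for STAT5A, 10 for STAT5B and 11 for STAT6. STAT3, STAT5A and STAT5B are neighbours on chromosome 17 and shared 6 of these regions, and each region is named here for the gene whose body holds it or else for the nearest main start site. The rule used position only, so levels were free to differ. Of the 41 regions, 6 were found in exactly 2 lists, against 4.83% of all regions. Those 6 had mean levels of 0.0859 to 0.642 over the 40 libraries, and 1 further region in the windows was found in a single list and left out.

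The BT474 cell line comes from a ductal carcinoma of the breast, overexpresses HER2 and is sensitive to the antibody trastuzumab, and BT474R is a single resistant clone grown out of it under trastuzumab, so the comparison of lines is one parent against one clone. Both lines were serum starved. Baseline cells were collected at 0 h, and the other cells received epidermal growth factor (EGF, which binds EGFR), heregulin (HRG, which binds HER3 and HER4) or water as vehicle (control) and were collected after 1, 12 and 24 h. Each of the 20 groups (2 lines by 10 conditions) had 2 libraries from duplicate treatments, so p-values measure the spread between duplicates of one culture line.

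STAT proteins are latent transcription factors that are phosphorylated on a tyrosine by JAK kinases bound to cytokine receptors, or by receptor tyrosine kinases such as EGFR, and then pair and move to the nucleus. There they bind palindromic sites, and their target genes include their own inhibitors of the SOCS family. STAT2 acts downstream of type I interferon receptors, STAT3 downstream of the interleukin 6 family, STAT4 of interleukin 12, STAT6 of interleukin 4, and STAT5A and STAT5B downstream of prolactin and growth hormone in the mammary epithelium.

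The level of a region was the rank percentile of its strongest peak score within its own library, from 0 for no peak to near 100 for the highest scores. Peak lists held 47571 to 56846 peaks in BT474 libraries and 32479 to 56494 in those of BT474R, and the 2 control 12 h libraries of BT474R were among the smallest, with 32479 and 40331. The sequencing depth behind the lists was unknown, and a region at 0 was one where no peak was listed. In bulk libraries, fewer cells with open chromatin and less open chromatin per cell cannot be told apart. Start-site regions of all 8 luminal epithelial markers checked (among them KRT8, KRT18 and ERBB2) were found in at least 19 of 20 libraries of each line. PTPRC, CD3E and PECAM1 had none, but COL1A1, CDH5 and VWF, markers of other cell types, had a start-site region in all 40 libraries. CD14 had one in 13 and PDGFRB in 12 BT474 libraries, and COL3A1 in 8 of BT474 and 1 of BT474R, and the part of such markers in the results was not tested.

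Short stretches of 3 regions are shown as examples, not as the only ones. They lie in regions that changed with ligand and held a motif of a stimulus-dependent or lineage factor. Each is the 201 bp around the summit of 1 peak, the one with the highest rank percentile in any library. It is on the plus strand of GRCh38, with motif matches in capitals. The first, chr2:191178801-191179001, lies between genes 28.0 kb upstream of STAT4 and holds a STAT palindrome with a spacer of 3 bases (TTCNNNGAA). It also holds a match to TGANTCA, here TGAATCA. That pattern allows any base at N and is looser than the AP-1 element bound by FOS and JUN. The second, chr2:191050166-191050366, lies in an intron of STAT4 and holds a GATA site (AGATAA) and the palindrome with 4 spacer bases (TTCNNNNGAA), the form known for STAT6. The third, chr17:42431888-42432088, lies between genes 43.7 kb upstream of STAT3 and holds a forkhead site (TGTTTAC, read here on the opposite strand).
STAT4 28.0 kb upstream: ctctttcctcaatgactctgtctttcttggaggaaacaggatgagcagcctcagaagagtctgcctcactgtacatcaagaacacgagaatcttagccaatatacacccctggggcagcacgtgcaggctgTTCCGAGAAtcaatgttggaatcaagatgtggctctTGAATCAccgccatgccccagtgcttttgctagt
STAT4 intron: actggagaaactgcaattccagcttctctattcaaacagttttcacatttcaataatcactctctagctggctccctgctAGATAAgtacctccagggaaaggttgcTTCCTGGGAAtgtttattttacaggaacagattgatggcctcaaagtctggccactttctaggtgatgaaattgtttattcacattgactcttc
STAT3 43.7 kb upstream: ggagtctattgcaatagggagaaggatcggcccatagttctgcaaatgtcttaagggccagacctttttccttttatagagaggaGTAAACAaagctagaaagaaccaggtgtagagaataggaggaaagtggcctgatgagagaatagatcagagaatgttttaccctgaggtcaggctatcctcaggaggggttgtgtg
Both strands were searched, and shares refer to windows of the same length. The 3-base STAT palindrome was found in 6 of the 41 regions and 5.37% of all regions, and the loose AP-1 pattern in 6 and 16.3%. The 4-base palindrome was found in 2 and 3.89%, the GATA site in 1 and 8.93%, and the forkhead site in 1 and 8.50%. A CCAAT box in the first stretch was left in lower case. Other regions called with a ligand also held matches and are not shown. The loose AP-1 pattern was found 68.4 kb downstream of the STAT2 start, 171 kb downstream of the STAT4 start and at chr2:191041741-191041997. The 3-base palindrome was found at chr2:191041741-191041997 and chr17:42329025-42329289. These are matches of letters and were not tested for binding.

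The start sites of the genes differed in how open they were. STAT2, STAT3 and STAT6 each had a region at a start site that was open in all 40 libraries. The STAT2 region (chr12:56359821-56360901) ranged from 95.3 to 96.6 in BT474 (median 95.9, n = 20), and the BT474R values were 95.5 to 96.4 (median 96.02, n = 20). Both ranges overlapped nearly in full, with a line difference (BT474R minus BT474) of 0.02 points (SE 0.11, limma adjusted p = 0.859). The STAT3 region (chr17:42387685-42389266) lay between 87.8 and 92.5 in BT474 (median 90.01) and between 85.9 and 91.8 in BT474R (median 89.1). Its line difference was −1.10 (SE 0.38, adjusted p = 0.0123), with overlapping ranges. STAT6 was open 0.78 kb upstream of its main start, at another annotated start (chr12:57111629-57112659), at 85.1 to 90.7 in BT474 (median 87.7) and 74.6 to 85.7 in BT474R (median 82.97). The STAT6 difference was −5.65 (SE 0.52, adjusted p = 7.05e-10). The region nearest the main STAT6 start (chr12:57111277-57111490) was listed in only 2 libraries, both of BT474R at 1 h, at 2.87 and 0.715. STAT5B had a weak start-site region (chr17:42276074-42276567, in the first exon of the main transcript) that was open in 9 of 20 BT474 and 1 of 20 BT474R libraries, with a highest value of 36.9. No region lay within 1 kb of the main start of STAT4 or of any start of STAT5A. The one STAT4 region at another annotated start (chr2:191041741-191041997) was open in the EGF 24 h libraries of BT474R, at 11.1 and 14.5, and in no other library.

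**Figure D1:**
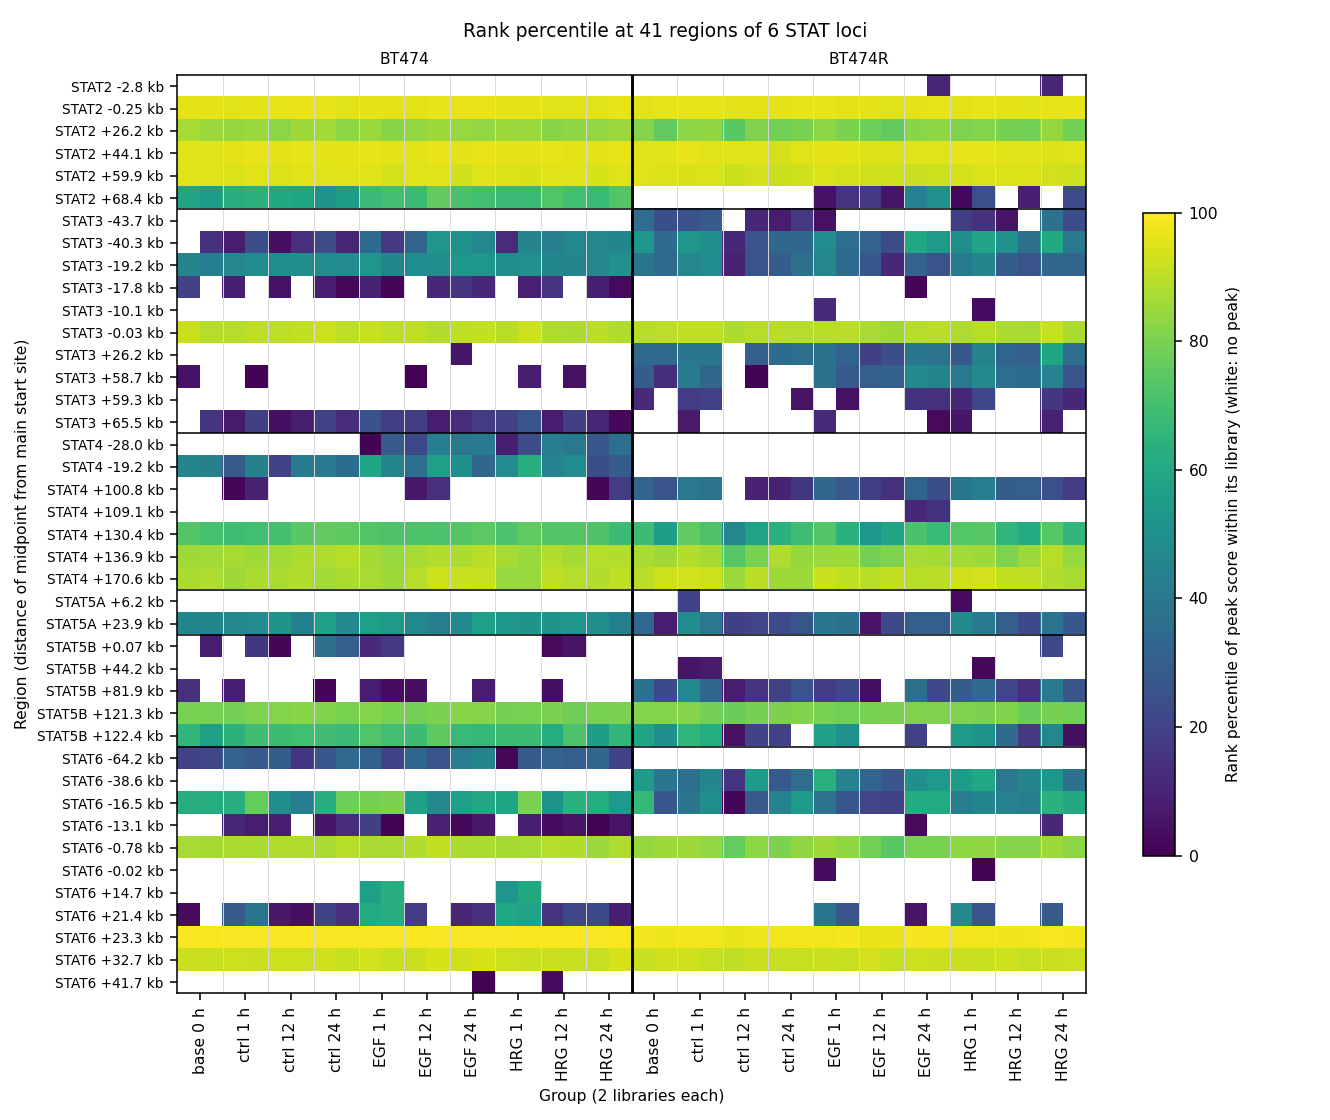
Rank percentile of the peak score (colour, 0 to 100, white where no peak was listed) at the 41 regions (rows, named by gene and distance in kb of the midpoint from the main start site) in the 40 libraries (columns, 2 per group, BT474 left and BT474R right). A peak was listed in every column for 13 of the 23 regions within 1 kb of a start site, while the regions at STAT4 −19.2 kb and STAT6 −64.2 kb were seen in BT474 only and the one at STAT6 −38.6 kb in BT474R only.

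In all, 15 of the 41 regions (36.6%) were open in all 40 libraries, against 35.1% of all consensus regions. Of the 23 regions within 1 kb of any gene start, 13 were open in all 40 libraries, and of the 18 elsewhere 2 were, at chr17:42312201-42312653 between STAT5A and STAT3 and at chr17:42407522-42407800, 19.2 kb upstream of STAT3. Over all regions the shares were 58.2% at start sites and 24.7% elsewhere. Apart from start sites of the family, the highest-ranked region of each window differed widely. It stood at a mean of 95.7 over 40 libraries for STAT2 (the start of CNPY2), 40.5 for STAT3 (in CAVIN1), 89.0 for STAT4, 39.6 for STAT5A (the region between genes just named) and 80.2 for STAT5B (the start of RAB5C). For STAT6 it was the start of NAB2 (chr12:57086602-57089437), a gene next to STAT6 that encodes a corepressor of EGR factors, at 99.0 to 99.4 in BT474 (median 99.3) and 96.5 to 98.9 in BT474R (median 98.0).

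The lines were compared over their 10 conditions. By limma, 33 of the 41 regions differed, 11 higher and 22 lower in BT474R, where 77.7% of all regions were called, so a share of this size is near the background. The median difference was −1.10 points over the 41 regions and −1.22 over all. By presence of a peak (Fisher's exact test, 20 against 20), 16 of the 16 regions that could be called differed, 7 more and 9 less often open in BT474R, against 71.7% of all regions that could be called.

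There were 3 regions open in every library of one line and in none of the other. The region 19.2 kb upstream of STAT4 (chr2:191169904-191170574, between genes) ranged from 20.7 to 63.3 in BT474 (median 43.7, n = 20) and had no peak in the 20 BT474R libraries (difference −42.0, SE 2.10, adjusted p = 1.13e-14). In the gene LRP1, next to STAT6, exon 23 of the main transcript (chr12:57175391-57175784) ranged from 2.29 to 45.5 in BT474 (median 29.1) and was likewise without a peak in BT474R (difference −27.7, SE 1.77, adjusted p = 1.1e-12). With the lists cut to an equal number of top peaks it differed by −0.37 (adjusted p = 0.163). An LRP1 intron of the main transcript, exonic in another, 38.6 kb upstream of STAT6 (chr12:57149626-57150382) showed the opposite, from 15.3 to 63.4 in BT474R (median 45.0) and no peak in BT474 (difference 43.6, SE 2.53, adjusted p = 1.75e-13). Each of these 3 regions entered the test only through the line where it was open. The other line, all at 0, has no spread and lowers the pooled SE, so these p-values give no separate support. Over all regions, 2.52% were open in all 20 BT474 and no BT474R library, and 0.957% the other way.

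Inside STAT3, an intronic region 26.2 kb from the start (chr17:42361916-42362556) was open in 19 BT474R libraries, with a median of 35.1 and a highest value of 58.8, and in 1 BT474 library at 5.69. The BT474R library without a peak there was replicate 1 of control 12 h, the smallest list. The STAT3 difference was 33.2 (SE 2.11, adjusted p = 9.98e-13). It fell to 3.96 (SE 1.98, adjusted p = 0.0719) when only peaks with a score of at least 400 were kept. On the other side, the region at another start of CS, the citrate synthase gene, 68.4 kb downstream of the STAT2 start (chr12:56291424-56291915), was lower in BT474R by 55.7 (SE 1.97, adjusted p = 1.39e-17), the smallest p in the set. BT474 values lay from 51.1 to 76.1 and BT474R values from 0 to 50.6, where 10 libraries had no peak. A region at RAB5C downstream of STAT5B (chr17:42153451-42154465) was also lower in BT474R by 36.4 (SE 2.92, adjusted p = 7.2e-11), with 4 of 20 libraries at 0. Among the 12 regions with the smallest p, others higher in BT474R were STAT3 58.7 kb from its start (27.5, SE 1.5, adjusted p = 5.77e-14), the STAT4 intron shown above (22.8, SE 1.38, adjusted p = 3.86e-13) and the start of GHDC in the STAT5B window (chr17:42194232-42194682; 21.3, SE 1.86, adjusted p = 3.3e-10). With an equal number of top peaks, 21 regions were called, 7 higher and 14 lower. Over all regions that setting called 36709, of which 49.97% were higher. The median difference was then −0.849 points over the tested regions here and −0.003 over all. The STAT4 intron (0.856, adjusted p = 0.0828) and GHDC (0.866, adjusted p = 0.191) were not called.

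**Figure D2:**
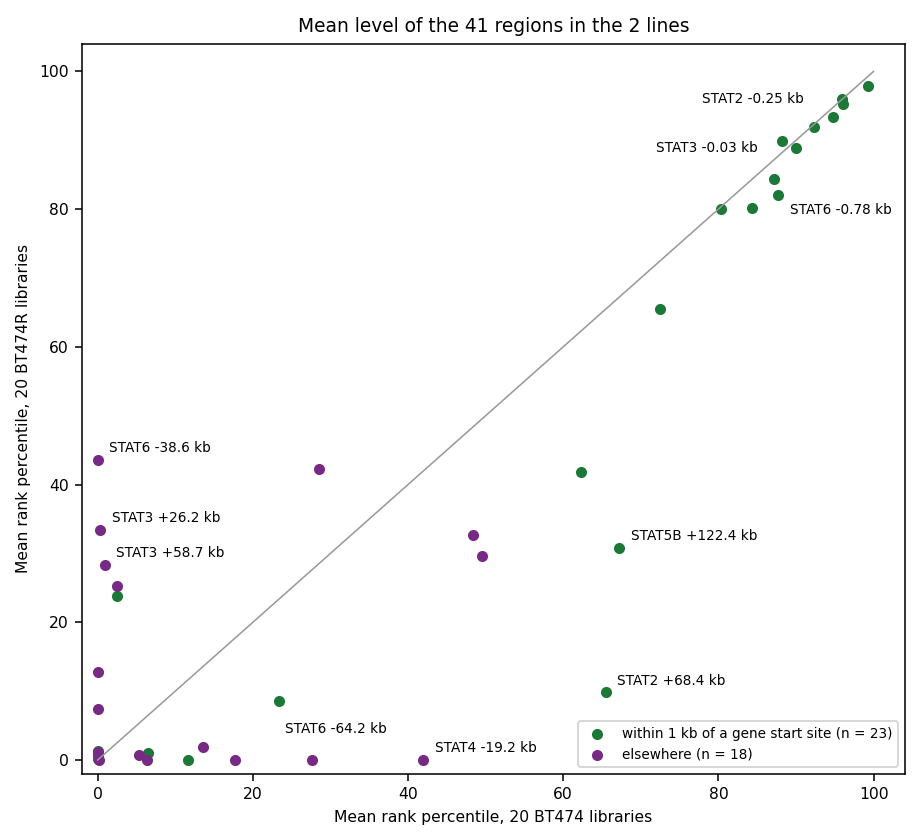
Mean rank percentile over the 20 BT474 libraries (x axis) and the 20 BT474R libraries (y axis) for each of the 41 regions, green within 1 kb of a gene start and purple elsewhere, with the line of equal levels. The regions STAT2 −0.25 kb, STAT3 −0.03 kb and STAT6 −0.78 kb lie close to the line, and regions far from it lie on both sides.

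EGF and HRG were each set against control at the same time points. In BT474, 31 of the 41 regions had enough peaks to be tested. With EGF, 2 of them were called by limma at 1 h (both higher; 3.82% of all regions tested were called), 2 at 12 h (both higher; 7.81%) and 4 at 24 h (3 higher, 1 lower; 14.7%), and over the mean of 3 times 6 were called, 5 higher and 1 lower, against 18.5% of all regions. With HRG the counts were 2 at 1 h (both higher; 9.61%), 3 at 12 h (all higher; 10.1%), 3 at 24 h (2 higher, 1 lower; 12.7%) and 6 over the mean (5 higher, 1 lower; 19.6%). The share of regions called over the mean was thus near the background for both ligands. The median difference over the mean was 1.37 points for the tested regions here and 1.28 for all regions with EGF, and −0.03 and 0 with HRG. When each list was cut to the same number of top peaks, 3 regions were called with EGF, all higher, and 5 with HRG, 4 higher and 1 lower. Over all regions that setting called 6693 with EGF and 9118 with HRG. The share of higher calls among all called regions then went from 91.5% to 62.65% with EGF and from 71.5% to 55.8% with HRG. The EGF and HRG comparisons share their control libraries.

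The region 28.0 kb upstream of STAT4 (chr2:191178752-191179319), with the STAT palindrome and the loose AP-1 match shown above, had a peak in the 12 BT474 libraries treated with a ligand and in none of the other 8. After EGF its percentiles were 1.05 and 28.3 at 1 h, 21.8 and 43.1 at 12 h, and 40.1 and 40.9 at 24 h. After HRG they were 8.55 and 23.5 at 1 h, 42.7 and 40.2 at 12 h, and 27.6 and 37.1 at 24 h. The baseline and control libraries were all at 0, so the groups did not overlap, although the 1 h values reached down to 1.05. Over the mean of 3 times the region was higher by 29.2 points with EGF (SE 4.68, adjusted p = 0.000752) and by 29.9 with HRG (SE 4.68, adjusted p = 0.00056). The region entered the tests only through its ligand libraries, so the p-values here describe the gap and give no separate support. By presence it was the 1 region called with each ligand, of 3 that could be called with EGF (19% of all such regions were called) and 2 with HRG (24.7%); its adjusted exact p was 0.0335 with EGF and 0.0241 with HRG. Over all regions, 170 of 71600 (0.237%) were open in the ligand libraries of BT474 and in no other library of that line. The peaks were of low score: with lists cut to equal size the difference was 0.0636 with EGF (adjusted p = 0.971) and 1.35 with HRG (adjusted p = 0.186). With a score of at least 400 the differences were 5.17 (adjusted p = 0.0523) and 4.53 (adjusted p = 0.0892). The EGF call at 12 h was lost without either control library or EGF replicate 2 of that time (adjusted p up to 0.305), and the HRG call at 24 h without either control library or HRG replicate 2 (adjusted p up to 0.13). In BT474R no library had a peak here.

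At the end of STAT6 a region opened after 1 h only. It overlaps the last exon of the gene (chr12:57096052-57097208, with its midpoint in the coding part of exon 22 and within 1 kb of another annotated STAT6 start) and begins 0.576 kb past the annotated end of NAB2, which runs towards it on the opposite strand. Its percentiles were 56.5 and 63.1 after 1 h of EGF and 52.3 and 60.8 after 1 h of HRG, and no peak was listed in the other 36 libraries. The 4 peaks were broad, from 912 to 1157 bp. At 1 h the difference was 59.8 with EGF (SE 2.95, adjusted p = 7.29e-07) and 56.6 with HRG (SE 2.95, adjusted p = 2.84e-07). Neither call was lost under any alternative that could test the region. It entered the test only through these 4 libraries. The other BT474 groups, all at 0, have no spread and lower the pooled SE, so these p-values give no separate support. Of all regions, 135 (0.189%) were open in the 4 ligand libraries of BT474 at 1 h and in no other library of that line.

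A second region at this locus, inside NAB2 (chr12:57089583-57090279, 21.4 kb from the STAT6 start), was also highest at 1 h. In BT474 it stood at 61.4 and 62.4 after 1 h of EGF and 59.7 and 57.6 after 1 h of HRG, against 29.0 and 39.0 in control 1 h, and the other 14 libraries of the line reached at most 22.3. The 1 h difference was 28.0 with EGF (SE 6.07, adjusted p = 0.0236) and 24.7 with HRG (SE 6.07, adjusted p = 0.0224). Without control replicate 1 or either HRG library of 1 h the HRG call was lost, and without any of the 4 EGF and control libraries of 1 h the EGF call was lost (adjusted p up to 0.164 and 0.167). In BT474R the region had no peak in any baseline or control library and stood at 38.6 and 26.2 after 1 h of EGF and 46.4 and 25.9 after 1 h of HRG. There the EGF difference was 32.4 (SE 7.70, adjusted p = 0.0389), which was lost in 14 of 20 fits that left out 1 library (adjusted p up to 0.199). Over the mean of 3 times HRG was higher by 11.9 in BT474 (SE 3.50, adjusted p = 0.0302) and by 16.7 in BT474R (SE 4.45, adjusted p = 0.0429), calls that were lost in 8 and 15 of 20 such fits. In BT474R the EGF difference at 1 h was 1.35 with an equal number of top peaks (adjusted p = 1) and 1.97 with a score of at least 400 (adjusted p = 0.894), and the HRG mean difference was 2.31 (adjusted p = 0.538) and 2.57 (adjusted p = 0.529). On log2 scores none of these 5 calls held (adjusted p from 0.051 to 0.977). In BT474R the region entered the test only through its ligand libraries. The direction there was thus fixed in advance, and the p-values of that line give no separate support.

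The region at CS in the STAT2 window, lower in BT474R above, rose with both ligands in BT474. Its 6 control libraries ranged from 51.1 to 63.9 (median 59.8), its 6 EGF libraries from 68.1 to 76.1 (median 70.0) and its 6 HRG libraries from 67.3 to 73.1 (median 69.3), so the ligand libraries did not overlap the controls. The mean difference was 11.8 with EGF (SE 1.57, adjusted p = 0.000197) and 11.1 with HRG (SE 1.57, adjusted p = 0.000262), and neither call was lost under any alternative. The 12 h calls alone (12.3 with EGF and 11.7 with HRG) were lost with an equal number of top peaks (adjusted p = 0.0684 and 0.0536) and without either control library of 12 h, EGF replicate 2 or HRG replicate 1 of that time (adjusted p up to 0.186 and 0.12). In BT474R its 8 baseline and control libraries were at 0. EGF gave 4.84 and 15.2 at 1 h, 17.0 and 5.67 at 12 h, and 44.3 and 50.6 at 24 h, with a mean difference of 22.9 (SE 4.44, adjusted p = 0.00314). HRG gave 2.24 and 24.4 at 1 h, 0 and 8.93 at 12 h, and 0 and 23.1 at 24 h, with a mean difference of 9.78 that was not called (SE 4.44, adjusted p = 0.247). By presence, EGF against control in BT474R called this region alone of 3 that could be called (4.08% of all such regions; exact p = 0.00217, adjusted p = 0.217). The region entered the tests of BT474R only through its ligand libraries, so the p-values of that line describe the gap and give no separate support.

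Upstream of STAT3, the region at 40.3 kb (chr17:42428291-42429136, between genes) was higher with both ligands in BT474. Its control libraries ranged from 4.13 to 24.0 (median 11.9, n = 6), the EGF libraries from 16.9 to 52.0 (median 40.8) and the HRG libraries from 12.7 to 46.7 (median 45.7). The ranges overlapped through the 1 h libraries, and at 12 h and 24 h the 8 ligand values, from 32.5 to 52.0, lay above the 4 control values. The mean difference was 25.1 with EGF (SE 5.97, adjusted p = 0.00997) and 26.04 with HRG (SE 5.97, adjusted p = 0.00756). With an equal number of top peaks the EGF difference was 6.65 (SE 3.07, adjusted p = 0.154), and on log2 scores neither mean call held (adjusted p = 0.223 with EGF and 0.163 with HRG). The HRG difference at 12 h alone, 35.6 (SE 10.3, adjusted p = 0.046), was lost in 14 of 20 fits that left out 1 library (adjusted p up to 0.24). In BT474R the region was open in all 20 libraries, from 11.2 to 60.7 (median 44.4), and no ligand comparison called it.

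STAT5B supplied the one lower call of BT474. Its start-site region stood at 36.9 and 30.0 in control 24 h and had no peak in the 4 ligand libraries of 24 h (difference −33.4 for each ligand, SE 4.37, adjusted p = 0.000379 with EGF and 0.00039 with HRG). The 24 h controls also stood apart from the other controls, which were at 0 and 16.3 at 1 h and 1.56 and 0 at 12 h, and from the baseline at 0 and 8.39. Over the mean of 3 times the difference was −9.28 with EGF (SE 2.52, adjusted p = 0.0208) and −12.8 with HRG (SE 2.52, adjusted p = 0.00293). The EGF mean call was lost without EGF 1 h replicate 1, control 12 h replicate 1 or control 24 h replicate 1 (adjusted p up to 0.0641), and both mean calls were lost on log2 scores (adjusted p = 0.231 and 0.0751).

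One further region in BT474, 171 kb downstream of the STAT4 start and open in all 40 libraries, was higher with EGF at 24 h by 4.38 points (SE 1.198, adjusted p = 0.0274) and over the mean by 2.15 (SE 0.69, adjusted p = 0.047). Its 24 h values were 91.4 and 91.1 with EGF against 86.0 and 87.8 in control. The call at 24 h was lost without any of those 4 libraries (adjusted p up to 0.172), and the mean call was lost in 14 of 20 fits that left out 1 library (adjusted p up to 0.133).

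**Figure D3:**
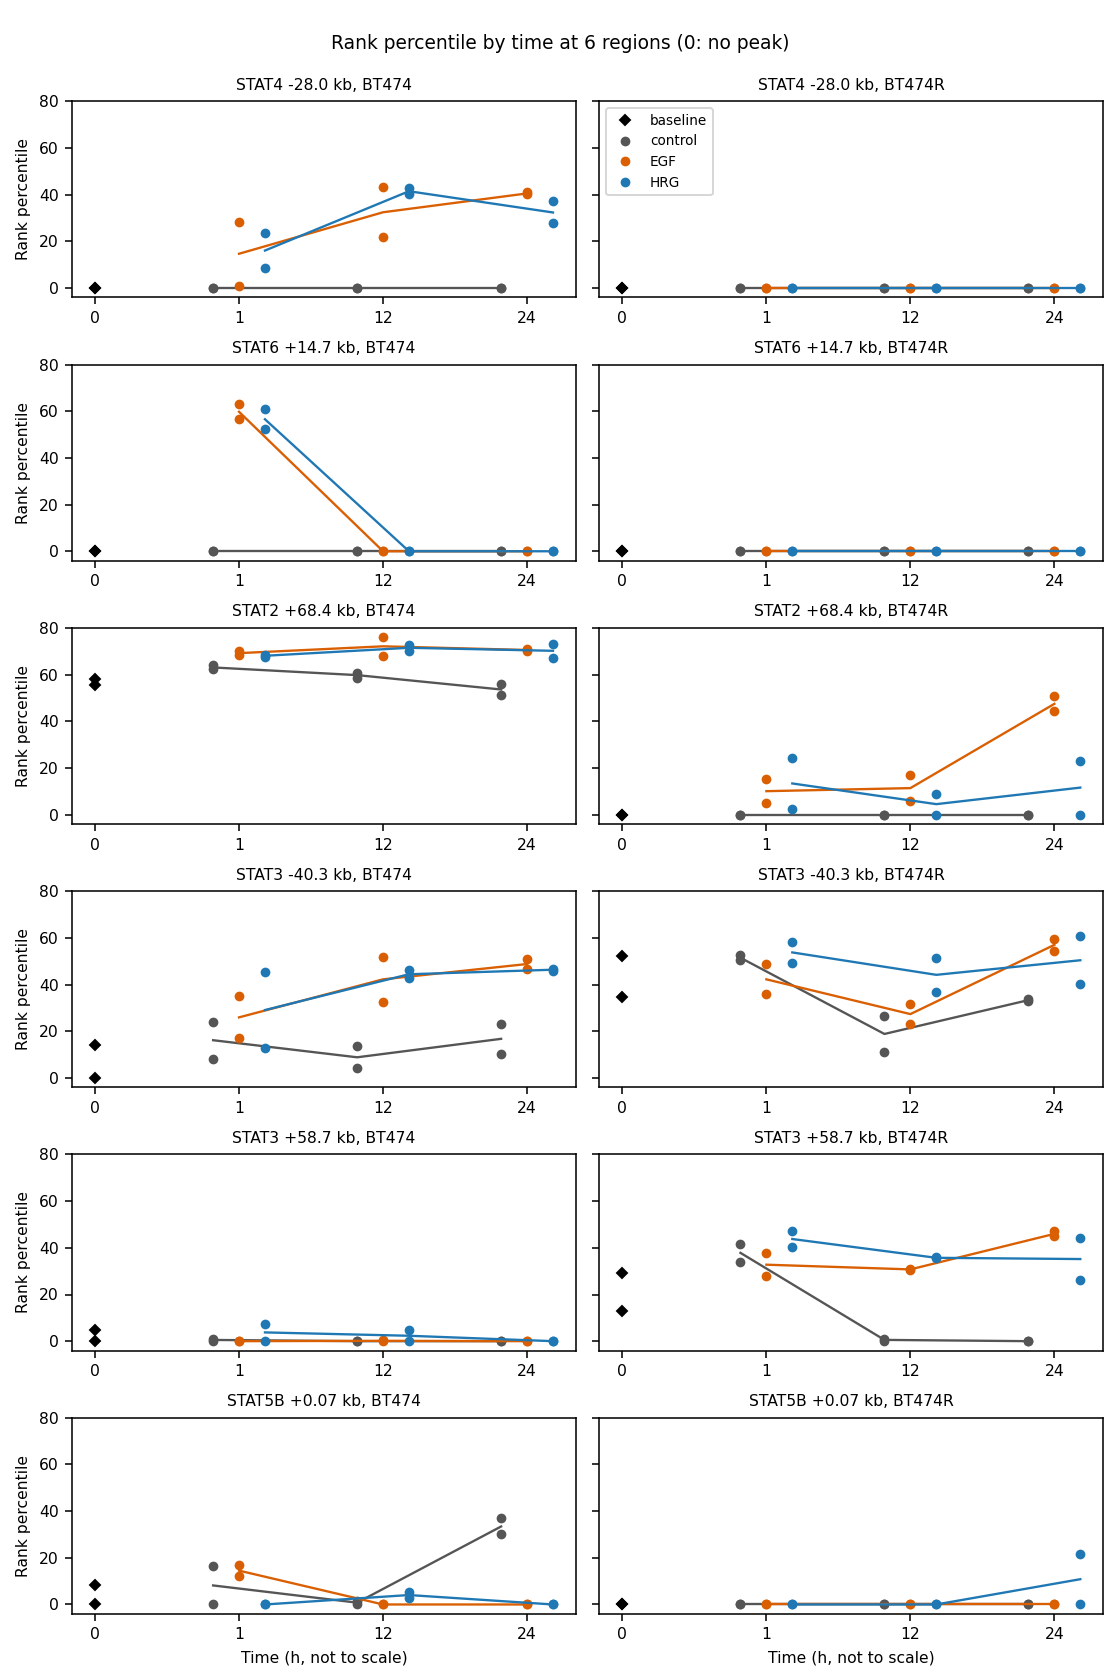
Rank percentile (y axis, 0 where no peak was listed) at 6 regions over time (x axis, h, not to scale) in BT474 (left) and BT474R (right), with a point per library, baseline as black diamonds and lines through the mean of 2 libraries for control (grey), EGF (orange) and HRG (blue). The STAT4 −28.0 kb region appeared with either ligand in BT474 only, the STAT6 +14.7 kb region at 1 h only, and the STAT3 +58.7 kb region of BT474R stayed open with ligand while both later control groups were near 0.

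In BT474R, 34 of the 41 regions were tested. With EGF, 4 were called at 1 h (1 higher, 3 lower; 3.4% of all regions tested were called), 1 at 12 h (higher; 4.89%), 3 at 24 h (all higher; 16.2%) and 4 over the mean of 3 times (3 higher, 1 lower; 16.5%). The median difference over the mean was 0.41 points here and −0.03 over all regions with EGF, and 1.67 and 2.27 with HRG. At 1 h with EGF the median over all regions was itself shifted, by −3.02 points. With an equal number of top peaks no region of the 41 was called at 1 h, where 1379 of all regions were. With HRG, limma called 0 at 1 h (0.856%; 2 had an unadjusted p below 0.05), 2 at 12 h (both higher; 6.86%), 1 at 24 h (higher; 0.797%) and 3 over the mean (all higher; 6.72%). By presence HRG called 0 of the 1 region that could be called (2.31% of all such regions were called). Under the equal number of top peaks, 2 regions were called over the mean with EGF, both higher, and 1 with HRG, higher. Over all regions that setting called 9327 with EGF and 1720 with HRG. The share of higher calls among all called regions went from 75.8% to 58.4% with EGF and from 96.8% to 71.9% with HRG.

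Inside STAT3, 58.7 kb from its start, lay a region that was called over the mean of 3 times with both ligands in BT474R (chr17:42329402-42329989, an intron of the main transcript and an exon of another). Its baseline values were 29.3 and 13.1, and its control values 41.7 and 34.0 at 1 h, 0 and 1.09 at 12 h, and 0 and 0 at 24 h. After EGF it stood at 37.6 and 27.9 at 1 h, 30.4 and 31.1 at 12 h, and 47.0 and 44.9 at 24 h. After HRG it stood at 40.4 and 47.2, then 36.0 and 35.5, then 44.2 and 26.2. At 1 h control and ligand values overlapped, and at 12 h and 24 h the controls lay near 0 and all 8 ligand libraries at 26.2 or above. The difference over the mean was 23.7 with EGF (SE 3.90, adjusted p = 0.00104) and 25.4 with HRG (SE 3.90, adjusted p = 0.00309), and at 24 h with EGF it was 46.0 (SE 6.76, adjusted p = 0.000385). The 12 h calls, 30.2 with EGF (adjusted p = 0.0221) and 35.2 with HRG (adjusted p = 0.0105), were lost without control replicate 1 of 12 h or either ligand library of that group (adjusted p up to 0.133). The HRG call at 24 h (35.2, adjusted p = 0.0351) was lost in 11 of 20 fits that left out 1 library (adjusted p up to 0.317). The control 12 h lists were among the smallest. With an equal number of top peaks both mean calls, both 12 h calls and the EGF call at 24 h stood, and the HRG difference at 24 h was 2.5 (adjusted p = 0.845). With a score of at least 400 the mean differences were 4.75 (adjusted p = 0.365) and 5.58 (adjusted p = 0.302), those at 12 h were 0 with each ligand (adjusted p = 1), and the HRG difference at 24 h was 8.09 (adjusted p = 0.507). On log2 scores the 12 h calls were lost (adjusted p = 0.0696 with EGF and 0.106 with HRG). In BT474 the region had a peak in 5 libraries, at up to 7.51.

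Also at STAT3, the region 43.7 kb upstream that holds the forkhead site (chr17:42431860-42432331) was lower with EGF in BT474R. Its values were 35.8 and 24.2 at baseline, and 25.1 and 28.6 at 1 h, 0 and 11.6 at 12 h, and 7.99 and 17.1 at 24 h in control. With EGF 1 library of 6 had a peak, at 4.62 (1 h), and with HRG 5 of 6 had one, at up to 37.5. The mean difference with EGF was −14.3 (SE 3.21, adjusted p = 0.00796) and at 1 h −24.6 (SE 5.55, adjusted p = 0.0312), the latter lost in 8 of 20 fits that left out 1 library. It had no peak in BT474. With a score of at least 400 it differed by 0 (adjusted p = 1).

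The STAT4 intron that holds the GATA site and the 4-base palindrome (chr2:191049933-191050432) was open in 19 BT474R and 6 BT474 libraries. In BT474R its control values were 40.5 and 37.9 (1 h), 0 and 9.97 (12 h) and 10.1 and 16.2 (24 h), and HRG gave 38.7 and 42.9, 29.48 and 30.3, and 24.4 and 17.4. HRG was higher by 24.9 at 12 h (SE 5.22, adjusted p = 0.0155) and by 11.4 over the mean (SE 3.01, adjusted p = 0.0414). These were lost in 3 fits (control 12 h replicate 1 and both HRG 12 h libraries) and in 15 of 20 fits that left out 1 library, in that order. With an equal number of top peaks the differences were 4.54 (adjusted p = 0.282) and 1.94 (adjusted p = 0.418), with a score of at least 400 they were 0 and 0.891 (adjusted p = 1 and 0.743), and both calls were also lost with at least 50% of the region covered (adjusted p = 0.596 and 0.506) and on log2 scores (adjusted p = 0.2 and 0.532). In BT474R 3 more calls rested on low values. The STAT4 region at another start, described above, was called with EGF at 24 h (difference 12.8, SE 1.32, adjusted p = 1.94e-05). It entered the test only through the EGF 24 h libraries, and every other group was at 0. The direction was thus fixed in advance, and this p-value gives no support. A STAT5B region in an intron and at another start (chr17:42232015-42232328), at 5.61 and 7.36 in control 1 h, was at 0 with EGF (difference −6.49, SE 1.21, adjusted p = 0.0121), lost without either EGF 1 h library (adjusted p up to 0.0575). A STAT3 region 59.3 kb from the start (chr17:42329025-42329289) stood at 17.4 and 19.4 in control 1 h and 0 and 4.48 with EGF (difference −16.2, SE 3.97, adjusted p = 0.0452), lost in 14 of 20 such fits.

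**Figure D4:**
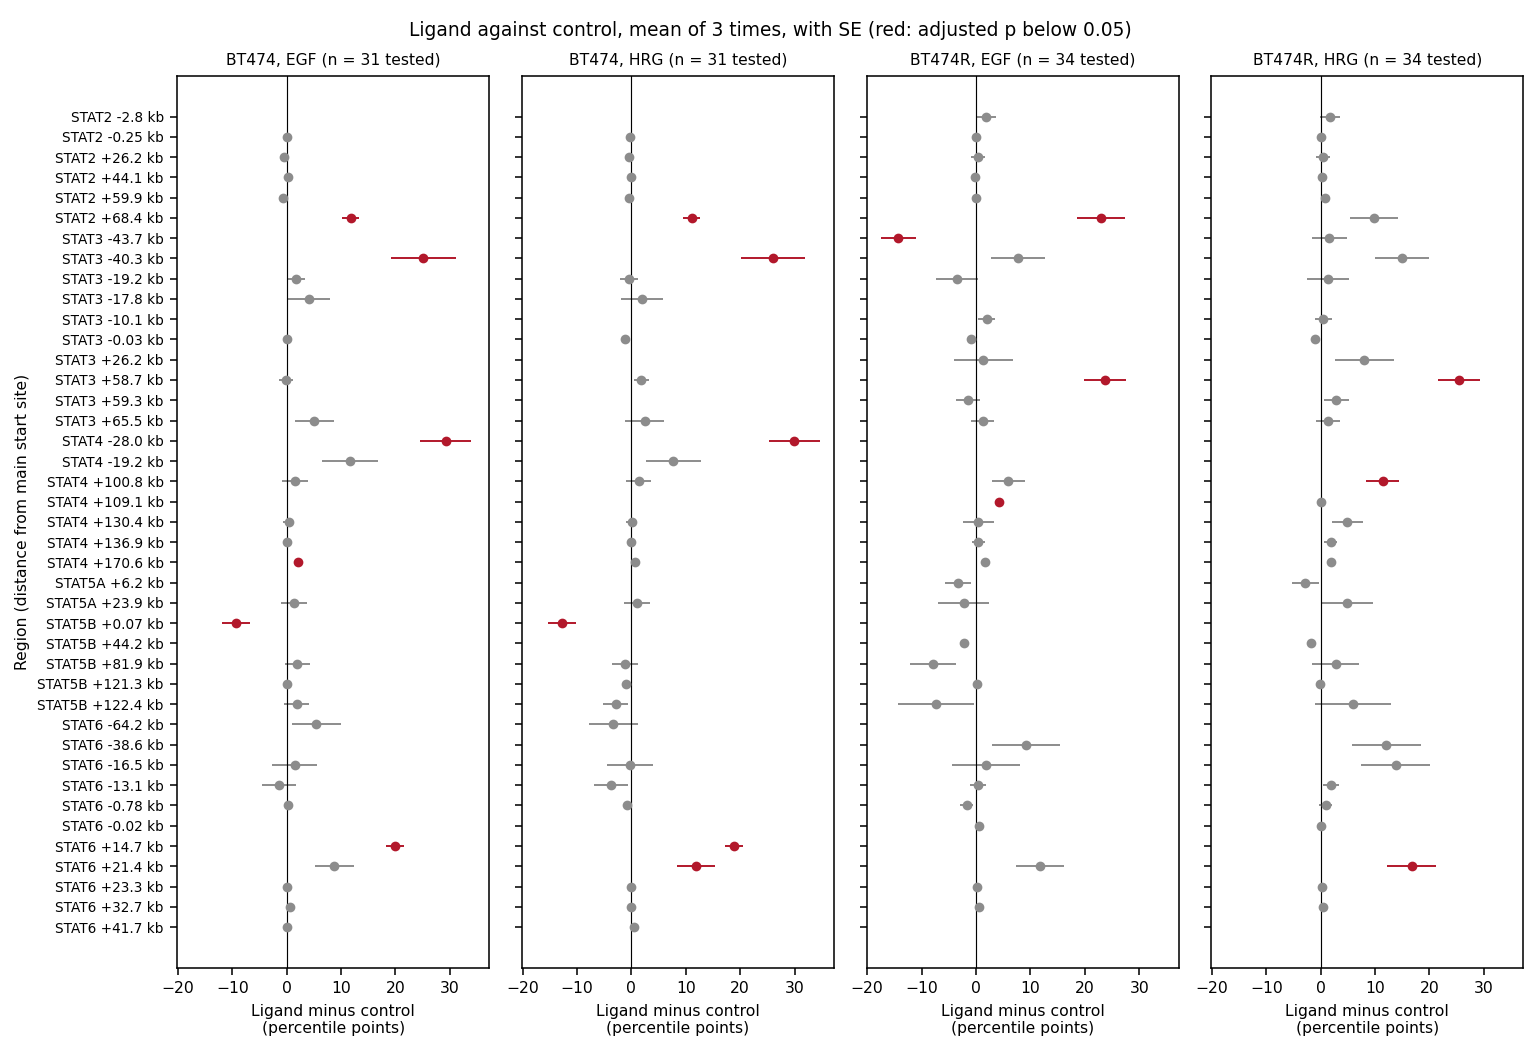
Difference between ligand and control in rank percentile points (x axis, mean of 3 times) with its SE for every region that could be tested (rows, 31 in BT474 and 34 in BT474R), red where the adjusted p was below 0.05. The regions STAT2 −0.25 kb, STAT3 −0.03 kb and STAT6 −0.78 kb were not called in any of the 4 panels.

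The difference between the lines in the response to a ligand was tested directly, as the ligand effect in BT474R minus that in BT474. For EGF 6 of the 41 regions were called, 2 higher and 4 lower in BT474R, against 9.11% of all regions, and for HRG 4 were, 2 in each direction, against 6.34%. The regions at STAT4 28.0 kb upstream, at the STAT6 last exon and at STAT3 58.7 kb differed for both ligands. With EGF the difference was −29.2 (SE 4.84, adjusted p = 0.000232), −19.9 (SE 1.53, adjusted p = 2.87e-09) and 23.8 (SE 3.87, adjusted p = 0.000182) in that order. The STAT4 and STAT6 regions had no peak in BT474R and entered the test only through ligand libraries of BT474. With lists cut to equal size the differences at STAT4 were −0.0636 and −1.35 (adjusted p = 0.977 and 0.208), and with a score of at least 400 those at STAT3 58.7 kb were 4.75 and 5.58 (adjusted p = 0.398 and 0.298). The region at CS was not called, with a difference of 11.1 for EGF (SE 5.09, adjusted p = 0.207) and −1.31 for HRG (SE 5.09, adjusted p = 0.93).

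Among the other genes of the pathway, start-site regions were read for 4 kinases, 14 receptors, 15 inhibitors, IRF9 and 5 targets. JAK2, the kinase of the prolactin and growth hormone receptors, had a start-site region in 20 of 20 BT474 libraries and none of BT474R, while JAK1 and TYK2 were open in all 40 and JAK3 in none. By limma, 0 of 4 kinase regions tested in BT474 were called over the mean of 3 times with either ligand (1 with EGF and 0 with HRG at an unadjusted p below 0.05), and 0 of 3 in BT474R (0 unadjusted). Of 19 receptor regions tested in each line, EGF called 3 higher and 1 lower in BT474 (18.5% of all regions were called) and 4 higher in BT474R (16.5%), and HRG called 2 higher and 1 lower in BT474 (19.6%) and 1 higher in BT474R (6.72%). These shares, which also hold beside the inhibitors and targets, are the background for the counts. A region at an internal start of IL6R (chr1:154433171-154433678) was higher with EGF in both lines, by 25.4 in BT474 (SE 3.70, adjusted p = 0.000377) and by 25.9 in BT474R (SE 3.46, adjusted p = 0.000231). With HRG it was also higher in BT474, by 23.6 (SE 3.70, adjusted p = 0.000572), and was not called in BT474R. A region at another start of IL4R, which signals to STAT6, had a peak in 6 of 6 EGF and no control libraries of BT474R, at a mean of 29.4 (SE 3.49, adjusted p = 9.6e-05). IRF9, the partner of STAT2, was higher at its start with EGF in BT474R by 12.4 (SE 1.31, adjusted p = 4.1e-05). SOCS3, an inhibitor and known STAT3 target, was lower at its start with both ligands in BT474, by −3.10 with EGF (SE 0.82, adjusted p = 0.0175) and −3.70 with HRG (SE 0.82, adjusted p = 0.00598). Of the 18 inhibitor regions tested in BT474, EGF called 2, both lower, and HRG 1, lower; of 19 in BT474R, each ligand called 1, higher. Of the 8 target regions tested in BT474, 1 was called with each ligand, at MCL1 and lower, and of 7 in BT474R limma called 0 with each ligand (0 at an unadjusted p below 0.05). Their median differences with EGF were −0.37 in BT474 and −0.73 in BT474R, beside 1.28 and −0.03 over all regions. Between the lines the receptors had 5 regions higher and 12 lower in BT474R of 22, the inhibitors 6 and 9 of 19, and the targets 1 and 6 of 8, where 77.7% of all regions were called.

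The patterns most like the start-site regions were sought among the start-site regions of protein-coding genes, by the lower of the correlations over the 20 BT474 and the 20 BT474R libraries. Libraries of a line share list size and condition, so these are descriptions. For STAT3 they were USP54 (Pearson r = 0.711 and 0.796), NUP133 (0.721 and 0.711) and the shared start of IZUMO4 and MOB3A (0.709 and 0.701). For STAT2 they were the shared start of ARHGAP19 and ARHGAP19-SLIT1 (0.782 and 0.750), that of APEX1 and OSGEP (0.744 and 0.764) and COL1A1 (0.738 and 0.764). For STAT5B they were TCEAL3 (0.767 and 0.773), PWWP2B (0.728 and 0.790) and NISCH (0.868 and 0.709). At STAT6 the region 0.78 kb upstream was most like ZNF585B (0.729 and 0.828), RGS22 (0.724 and 0.839) and MEI4 (0.720 and 0.757). The STAT4 region at another start and the STAT6 region nearest the main start had no peak in BT474, and no correlation could be computed.

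At the limits of the windows, the region at CS lay 0.0725 kb inside the STAT2 window. The nearest region outside any window edge lay 0.293 kb beyond that of STAT5A and was itself a STAT3 region described above, and the next lay 1.03 kb beyond that of STAT6 (chr12:57182888-57183454) and was open in all 40 libraries at a mean of 51.4.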

How the data were processed

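ATAC-seq was performed in 40 libraries, 2 per group. Per the study's methods and processing notes, the authors trimmed adapters with Trim Galore 0.6.6, mapped reads to GRCh38.p13 with BBMap and called peaks in each library with Genrich, removing mitochondrial reads and blacklisted regions. Genrich's options, which can change peak width and number, were not given in the sources used here. The deposited score of a peak (the signal value in column 7, which Genrich defines as an area under its significance curve, at least 200 in every list) was used, on chromosomes 1 to 22 and X. No peak reached past a chromosome end of the GRCh38 reference used here. Read counts were not analysed here, so the study's count model was not repeated.

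Peaks were merged into regions, and each region received the rank percentile of its highest score in each library (0 without a peak). Percentiles were compared with limma 3.58.1 (R 4.3.3, group means, empirical Bayes with trend), within each line for the ligands (regions open in at least 2 libraries of the line) and over all 40 libraries for the lines, with Benjamini-Hochberg adjustment over all regions tested and a threshold of 0.05. Presence was compared by two-sided Fisher's exact tests (scipy 1.17.1), called at an unadjusted p below 0.05 for ligands (6 against 6 libraries, regions open in 5 to 7 of 12) and at an adjusted p below 0.05 for lines. Groups with both libraries at 0 have no spread of their own and lower the pooled spread. A region open only in ligand libraries entered the tests through those libraries, and a region open in a single line entered the comparison of lines through that line. The limma script was tested on simulated data. A depth per library could not be given from peak lists, and no pair of libraries held the same peaks (highest Jaccard index 91.2%).

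Named regions were the start-site regions, every called ligand region, the line regions with the smallest p and, per gene, the highest-ranked region. The members, lists and tests were chosen with earlier results of these data known. Alternatives were an equal number of top peaks (32479), a score of at least 400, at least 50% of a region covered, quantile-normalised log2 scores, regions open in at least 10 libraries of a line (20 of both), regions in at least 4 lists, a replicate block and each library left out. Replicate numbers did not pair the libraries: over 45 pairs of groups per line the correlation of the replicate differences had a median of −0.007 in BT474 and −0.006 in BT474R. Some items of one window are not reported here.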

Additional observations from a re-analysis of the deposited data

Results flagged for a closer look

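Each result here is a test of whether a ligand changed a region differently in the 2 lines (effect in BT474R minus effect in BT474, limma over 40 libraries, mean of 3 times, in percentile points). For EGF the difference was −29.2 at the region 28.0 kb upstream of STAT4, −19.9 at the last exon of STAT6, 23.8 at the STAT3 region 58.7 kb from its start and −14.3 at the region 43.7 kb upstream of STAT3. It was 4.28 at the STAT4 region at another start, which entered the test only through its peaks in the 2 EGF 24 h libraries of BT474R. It was −2.16 at the STAT5B intron, with a peak in 3. For HRG it was −29.9 at 28.0 kb upstream of STAT4, −18.9 at the last exon of STAT6, 16.4 at the STAT5B start site and 23.6 at the STAT3 region 58.7 kb from its start. The STAT5B value rests on the control 24 h libraries of BT474, at 36.9 and 30.0, and the STAT3 values on the control libraries of 12 h and 24 h of BT474R, at 0 to 1.09. The EGF value at the STAT5B intron lost its call without either EGF 24 h library of BT474R (adjusted p up to 0.0607). List size moved with the line and its part in these results was not tested.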

How the results depend on the processing

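Of 2218 values of 68 named results recomputed under the alternatives, 1984 kept direction and call, 234 kept direction or fell to 0 without a call, and 0 reversed. Of 153 counts of called regions under settings other than leaving out a library, 111 stayed within 1.5 times the reported count, and the cause of the other changes was not tested. In the order of EGF and then HRG, counts in BT474 with an equal number of top peaks were 1 (12 h), 2 (24 h) and 3 (mean) for EGF and 1 (24 h) for HRG, and in BT474R 0 (1 h), 5 (24 h) and 2 (mean) for EGF and 1 (12 h), 0 (24 h) and 1 (mean) for HRG. That setting called 21 regions between the lines, 9 by presence, and by presence 0 for EGF in BT474 and 1 for HRG in BT474R. A score of at least 400 gave 1 (EGF 12 h) and 1 (HRG 24 h) in BT474, 0 (EGF 1 h), 0 (EGF 12 h), 1 (EGF mean), 1 (HRG 12 h), 0 (HRG 24 h) and 0 (HRG mean) in BT474R, and by presence 0 for EGF in each line and 10 between the lines. Covering 50% gave 1 at 1 h for each ligand in BT474 and 1 for HRG in BT474R at 1 h, 12 h and over the mean. Log2 scores gave 3 (EGF mean, BT474), and in BT474R 1 (EGF 1 h), 0 (HRG 12 h) and 1 (HRG mean), and 2 for the HRG difference between lines. Regions open in at least 10 libraries of a line (20 of both) gave 1 at 1 h for each ligand in BT474, 0 (EGF 1 h, BT474R) and 1 for each difference between lines, since fewer regions were tested; regions in at least 4 lists gave 2 (EGF 1 h, BT474R). The replicate block gave 1 for HRG at 1 h in BT474R, 33 between the lines, 3 for EGF at 1 h in BT474R, 2 for the HRG mean there, and the reported count elsewhere. Of the named results it ended 2 calls, HRG over the mean at the STAT4 intron (adjusted p = 0.0536) and EGF at 1 h at STAT3 59.3 kb from its start (adjusted p = 0.0604), both in BT474R, and presence has no blocked fit.

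Leaving out 1 library (limma pools the spread, so a lone library is assumed to vary like the other groups) gave, in BT474, 1 to 2 at 1 h for each ligand, 0 to 4 (EGF) and 1 to 3 (HRG) at 12 h, and 2 to 5 (HRG) at 24 h. In BT474R it gave, by rising time, 0 to 4, 0 to 2 and 2 to 5 for EGF, and 0 to 2, 0 to 8 and 0 to 5 for HRG, with 1 to 6 for the HRG mean. By presence it gave 1 to 2 (EGF) and 0 to 1 (HRG) in BT474R. Peak lists carry no read depth, so weak peaks near the lowest listed score cannot be told from regions just under it.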
